A study of Mus musculus with 4 samples.

Results

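Apolipoprotein and lipid transport genes were described across the cell classes of mouse retina. The 8 genes, chosen by symbol from the 27999 in the table, were Apoe, Clu, Lpl, Abca1, Abcg1, Lrp1, Lrp8 and Sorl1. Retinas of C57BL/6 mice aged 3 months, carrying a Brn3b::GFP reporter for the transcription factor encoded by Pou4f2, were dissociated and sorted for GFP, and 3′ transcript ends were counted in droplets. The 4 retinas form 1 group, with no second genotype or treatment, and barcode names do not tell the retinas apart, so the matrix is 1 pooled sample without replicates. Of 3237 barcodes, 2636 were kept after a filter on genes, mitochondrial UMIs (unique molecular identifiers, counted molecules) and doublets. Cells are not replicates, so no test was made, and each interval is a 95% interval for counting error only.

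Apolipoproteins carry cholesterol and phospholipid between cells as small lipoprotein particles. In neural tissue, glia are known as their main source. ABC transporters load lipid onto the particles, lipases release fatty acids from them, and receptors of the low-density lipoprotein receptor family take them up. Apoe and Clu encode the carriers apolipoprotein E and clusterin (apolipoprotein J). Lpl encodes lipoprotein lipase, Abca1 and Abcg1 encode cholesterol exporters, Lrp1 and Lrp8 encode receptors for apolipoprotein E, and Sorl1 encodes a receptor that sorts such cargo through endosomes. Lrp8 is also a receptor for the extracellular protein reelin.

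Classes were set by counts of other genes. Müller glia needed 3 or more UMIs each of Rlbp1 and Slc1a3, and microglia 20 or more of C1qa, C1qb and C1qc together. Retinal ganglion cells (RGC) needed 1 or more of Slc17a6, 3 or more of Rbpms and Slc17a6 together, and at most 1 of Lhx1. Horizontal cells needed 2 or more of Lhx1 and none of Slc17a6. This gave 206 Müller, 163 microglia, 916 RGC and 405 horizontal barcodes, with median depths of 4657, 3827, 15843 and 11187 UMIs. The 2 barcodes that met more than 1 of these rules were left out. Rules on other genes gave 302 bipolar, 128 amacrine, 52 rod and 71 cone barcodes, with medians of 4198.5, 5596.5, 4140 and 3574 UMIs. Markers outside the rules were highest in their own class for 9 of 10 Müller genes (Vim was highest in horizontal barcodes), 11 of 11 microglial, 8 of 8 RGC and 5 of 5 horizontal genes. Classes other than RGC are those that passed a gate for GFP, and the table holds 0 UMIs of its EGFP row, so the sort could not be checked by the reporter's transcript. Each level is the summed UMIs of a gene in a class over all UMIs of the class, on the usual CPM scale.

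The members lie on different chromosomes, except Abca1 and Lrp8, which share chromosome 4. In GENCODE annotation of GRCm38 (mm10, the build named in the submitters' processing notes), Apoe spans chr7:19696109-19699188 on the minus strand and Clu chr14:65968483-65981547 on the plus strand. Lpl spans chr8:68880491-68907448 and Abcg1 chr17:31057675-31117988, both on the plus strand. Abca1 spans chr4:53030787-53159895 on the minus strand and Lrp8 chr4:107802261-107876840 on the plus strand. Lrp1 spans chr10:127538161-127621148 and Sorl1 chr9:41964720-42124297, both on the minus strand. All 8 are protein-coding, and their identifiers in the deposited gene table matched the annotation.

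Apoe was by far most abundant in Müller glia and was carried there by every barcode. The Müller level was 14167 CPM (13936 to 14401) from 14279 UMIs, and barcodes held 18 to 602 Apoe UMIs with a median of 63. Microglia had 5199 CPM (5036 to 5367) with a median of 0 UMIs per barcode, so their level came from a minority of barcodes. RGC had 93.0 CPM (88.3 to 97.9), horizontal cells 113 CPM (104 to 123) and bipolar cells 97.9 CPM (82.3 to 116). Neither horizontal against bipolar nor bipolar against RGC differed beyond counting error, while horizontal cells stood 1.22-fold above RGC (1.10 to 1.35). Of the 515 horizontal Apoe UMIs, 35 and 17 came from 2 barcodes, where the next highest held 7. The ratio without those 2 barcodes was not measured. The Müller level was 152-fold the RGC level (144 to 161), and the microglial level 55.9-fold (52.6 to 59.4).

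The Apoe levels of amacrine, rod and cone barcodes rested in large part on a few barcodes. Amacrine barcodes had 604 CPM, but 375 of their 479 Apoe UMIs came from 1 barcode, and without it the level was 133 CPM. Rod barcodes had 494 CPM, with 115 of 137 UMIs in 1 barcode, and 81.3 CPM without it. The amacrine barcode also held 26 UMIs of Glul, the glutamine synthetase gene of Müller glia, and the rod barcode held 39. Cone barcodes had 161 CPM (116 to 217) from 43 UMIs, 10 of them in 1 barcode. The part of such glial transcripts in these levels was not tested.

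**Figure D1:**
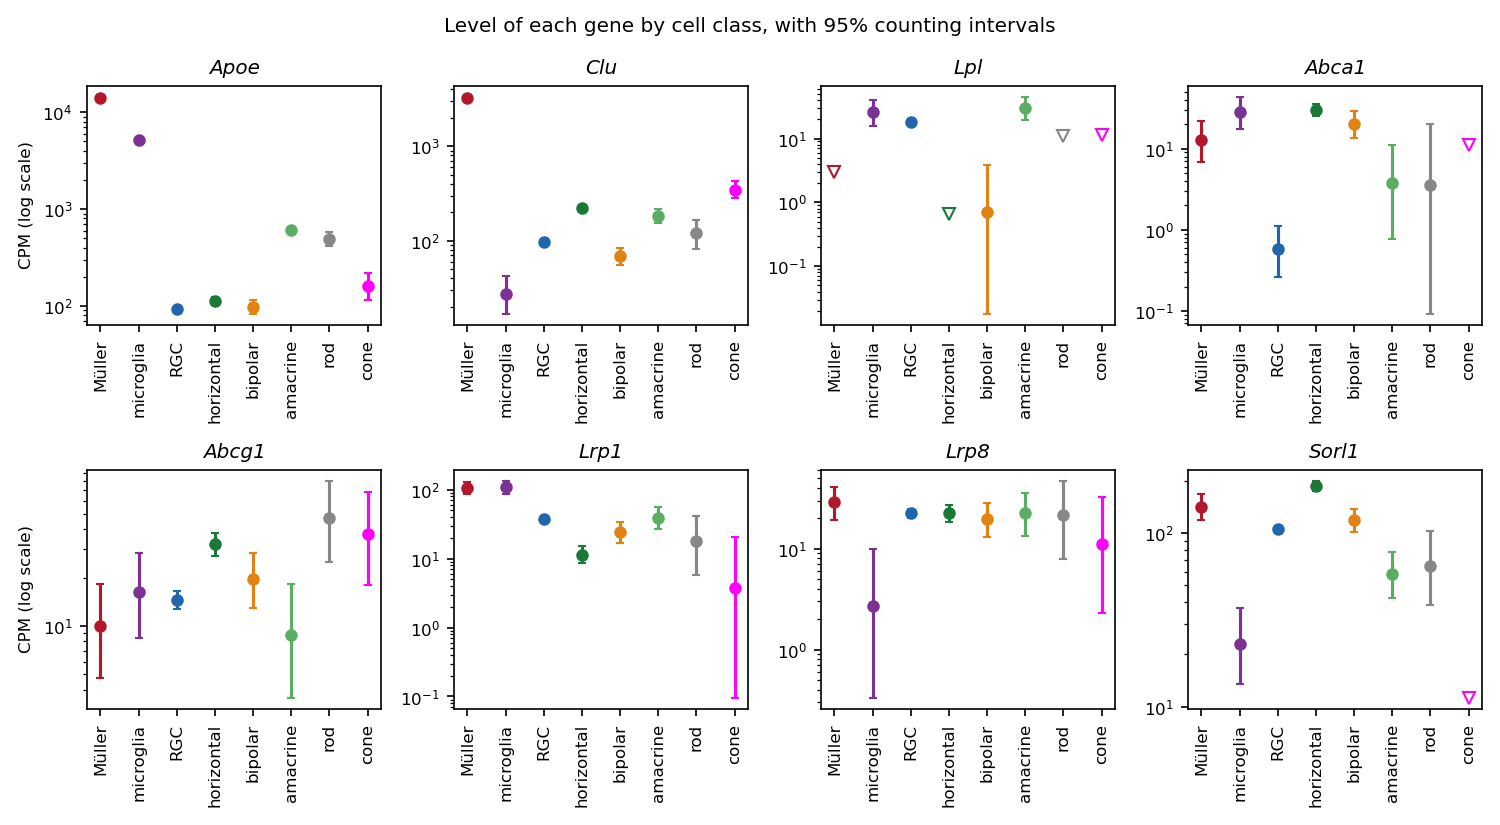
Level of each of the 8 genes in 8 cell classes, as CPM on a log axis with 95% counting intervals (bars); each panel has its own axis, and open triangles mark classes with 0 UMIs, drawn at the level of 3 counts. Apoe and Clu are highest in Müller glia, Abca1 is lowest among detected classes in RGC, and Lpl is undetected in Müller, horizontal, rod and cone barcodes.

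At equal depth, the share of barcodes with an Apoe UMI lay between 22.5% and 27.2% in RGC, horizontal, bipolar and cone cells and was higher in amacrine cells. After each barcode was thinned to 3000 UMIs, 22.5% of RGC (206 of 916, interval 19.8% to 25.3%), 26.4% of horizontal (22.2% to 31.0%), 27.2% of bipolar (22.2% to 32.5%) and 26.8% of cone barcodes (16.9% to 38.6%) held one. The shares were 39.8% in amacrine (31.3% to 48.9%) and 19.2% in rod barcodes (9.63% to 32.5%), and the amacrine interval lies above that of RGC. Unthinned, the shares in RGC, horizontal, bipolar and cone barcodes were 75.3%, 65.4%, 36.4% and 35.2%, in the order of the classes' depth, and those in amacrine and rod barcodes 50% (64 of 128) and 30.8%. Every Müller barcode held one at both depths. In 728 RGC thinned to 12000 UMIs, the variance of Apoe counts over their mean was 1.01, where counts that vary by sampling alone give 1. Apoe counts in RGC thus spread hardly more between cells than counts sampled at 1 level. RGC held 0.656% of the Müller level of Apoe (0.621% to 0.693%). Set beside it were 8 of the 12 Müller marker genes. Glul stood at 0.687% in RGC, Dkk3 at 5.09%, and the other 6 lower, from 0.141% for Cp to 0.372% for Rlbp1. Rlbp1 and Slc1a3, which set the Müller class, are among those 6. Of the markers left out, Prdx6 had 52.4 CPM in RGC against 2227 in Müller glia, and Vim 23.0 against 619. Sox9 had 1.29 against 490 and Kcnj10 0.258 against 192. In horizontal cells Apoe stood at 0.799%, Glul at 1.73% and Cp at 0.229%. The Müller genes thus did not keep 1 ratio in neurons, and the part of free RNA in the neuronal Apoe counts was not tested.

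**Figure D2:**
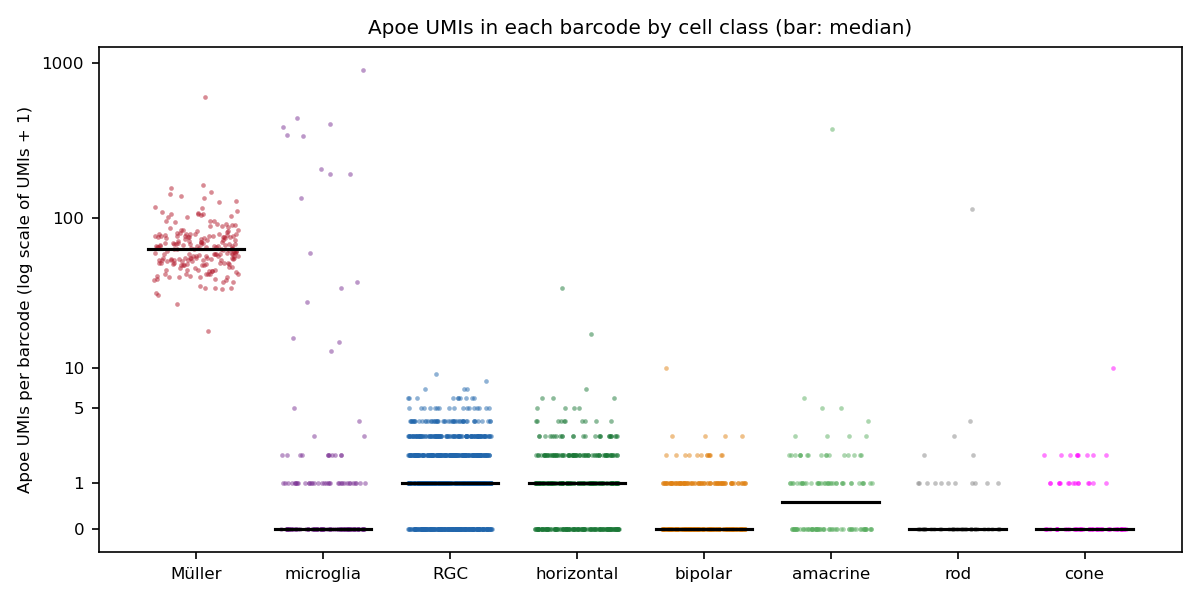
Apoe UMIs in each barcode (points) of 8 classes on a log axis of UMIs + 1, with the class median as a bar. All Müller barcodes lie at 18 UMIs or above, microglia separate into 146 barcodes at 0 to 5 and 17 at 13 to 902, and neurons lie mostly below 10.

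Within Müller glia, Apoe varied less between barcodes than within microglia. Apoe took between 0.483% and 3.30% of a Müller barcode's UMIs, with a median of 1.36%. At 3000 UMIs, Müller barcodes held 12 to 103 Apoe UMIs, and the variance over the mean was 5.28, against 315 in microglia. The Müller barcode with 602 Apoe UMIs was also the deepest, at 21927 UMIs, and carried 20 UMIs of Gfap, the glial filament gene of astrocytes and reactive Müller glia. The next highest held 164. The barcode with 602 Apoe UMIs held only 23 UMIs of the Müller marker Glul among its 21927, while the class level of Glul was 16016 CPM. Whether it is a Müller cell or an astrocyte was not tested. Across the 206 Müller barcodes at 3000 UMIs, Apoe and Clu had a correlation of 0.54 (Pearson's r, a description over cells of 1 pooled sample that share a library).

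Clu, the secreted chaperone clusterin, was also a Müller gene, but its neuronal levels were uneven. Müller glia had 3224 CPM (3114 to 3336), with a median of 12 UMIs and at least 1 UMI in 205 of 206 barcodes. Cones followed with 348 CPM (281 to 426), then horizontal cells with 219 CPM (206 to 233), and RGC with 97.4 CPM (92.5 to 102). Bipolar cells had 68.5 CPM (55.6 to 83.5) and microglia, the lowest class, 27.2 CPM (16.6 to 42.0). Each of these steps down exceeded counting error, and of all neighbours in the order of 8 classes only rod (119 CPM) against RGC did not. In amacrine barcodes, at 182 CPM, 37.5% of the Clu UMIs came from the Apoe-rich barcode described above.

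At 3000 UMIs, 63.4% of cone barcodes held a Clu UMI (51.1% to 74.5%), against 39.3% of horizontal (34.5% to 44.2%), 20.7% of RGC (18.2% to 23.5%) and 5.52% of microglia (2.56% to 10.2%). Unthinned, these shares were 71.8%, 80.0%, 62.2% and 9.82%. As a part of the Müller level, Clu stood at 10.8% in cones, 6.81% in horizontal cells, 3.02% in RGC and 0.844% in microglia, while Apoe stood at 1.13%, 0.799%, 0.656% and 36.7%. Among RGC at 12000 UMIs, the variance of Clu over its mean was 1.85, with up to 15 UMIs in a barcode.

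**Figure D3:**
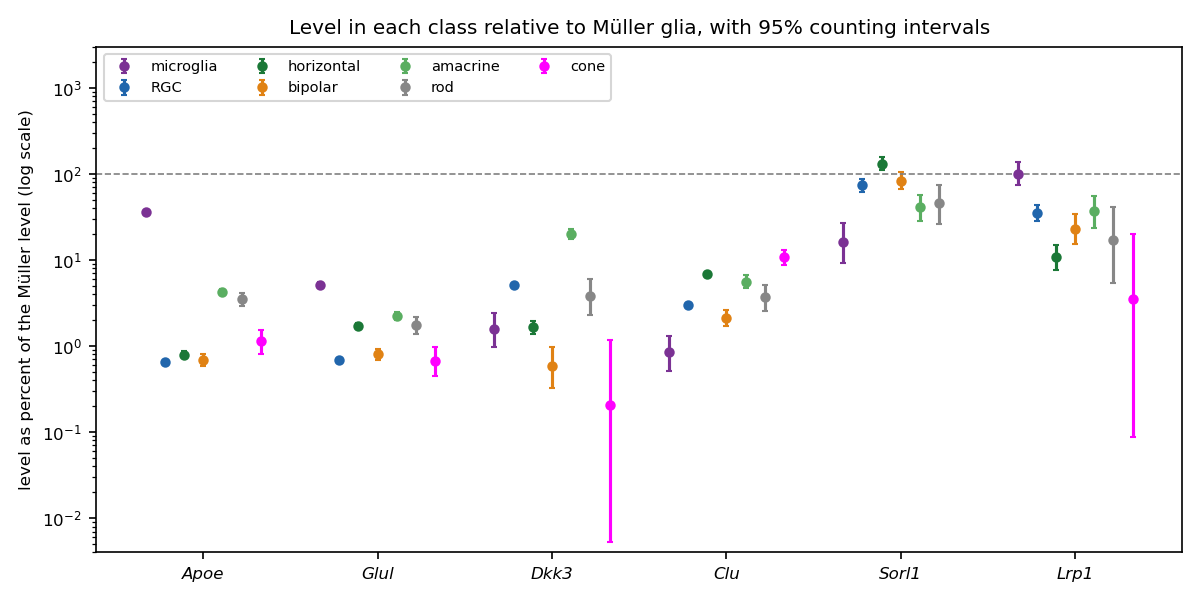
Level of Apoe, of the Müller marker genes Glul and Dkk3, and of Clu, Sorl1 and Lrp1 in 7 classes as a percent of the Müller level, on a log axis with 95% counting intervals; classes with 0 UMIs are not drawn. Apoe lies near 1% in RGC, horizontal, bipolar and cone barcodes, whereas Clu spreads from 0.844% in microglia to 10.8% in cones, and Sorl1 and Lrp1 lie mostly above 10%.

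Lpl, whose enzyme splits triglycerides in lipoproteins, was confined in these barcodes to a few classes. Amacrine cells had 30.3 CPM (24 UMIs), microglia 25.8 CPM (19 UMIs) and RGC 18.4 CPM (285 UMIs in 172 of 916 barcodes). Neighbours in that order did not differ beyond counting error, and amacrine cells stood 1.65-fold above RGC (1.04 to 2.50). No Lpl UMI was found in Müller, horizontal, rod or cone barcodes, and bipolar cells held 1. At 3000 UMIs, 0 of 405 horizontal barcodes allow a share of up to 0.741% and 0 of 206 Müller barcodes one of up to 1.46% (3 counts over the barcodes; the exact interval reaches 0.907% and 1.77%), against 4.48% measured in RGC (3.23% to 6.02%), 6.75% in microglia and 8.59% in amacrine cells. With a floor of 3 counts over the class, Lpl was at least 27.8-fold higher in RGC than in horizontal cells and at least 6.17-fold higher than in Müller glia.

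Within RGC, Lpl followed Foxp2, a transcription factor gene that marks the F-RGC types. The 96 RGC with 2 or more Foxp2 UMIs held 81 Lpl UMIs, at 51.0 CPM, in 40 barcodes. The 788 RGC without Foxp2 held 190 Lpl UMIs, at 14.2 CPM, in 122 barcodes, and the 32 with 1 Foxp2 UMI lay between at 25.9 CPM. The 34 RGC with 5 or more Foxp2 UMIs, a subset of the 96, reached 72.9 CPM. Lpl was 3.60-fold higher with 2 or more Foxp2 UMIs than with none (2.74 to 4.69). The shares at 12000 UMIs were 34.5% (30 of 87) and 11.7% (72 of 615), so the order held at equal depth. The groups overlapped: 60 RGC held 2 or more Lpl UMIs, and 38 of those had no Foxp2 UMI while 19 had 2 or more.

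**Figure D4:**
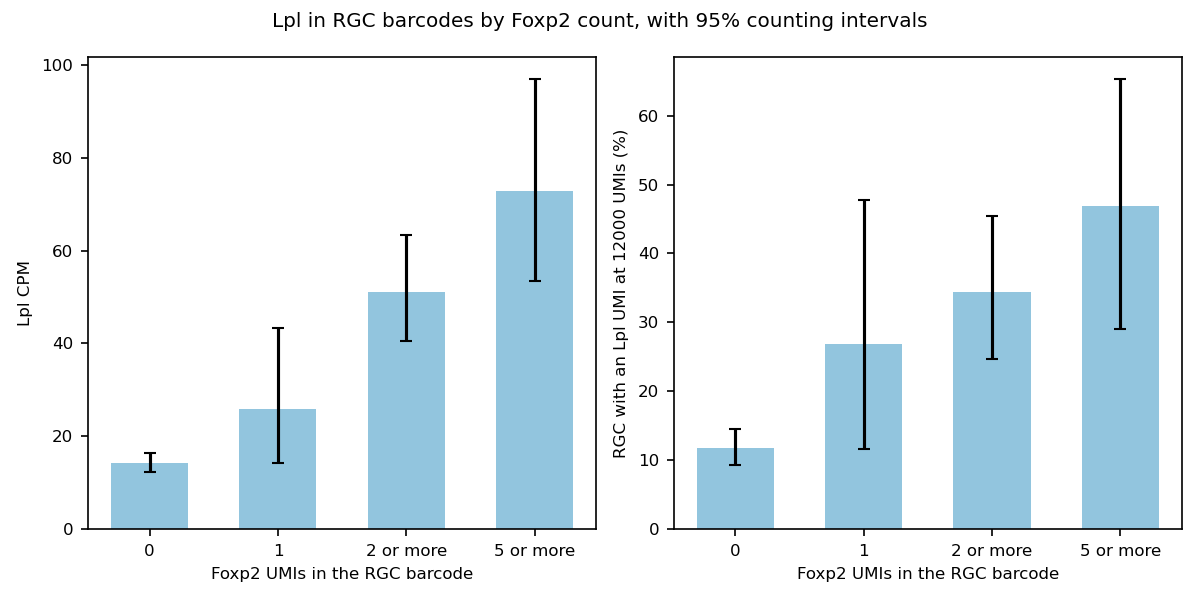
Lpl in RGC barcodes by Foxp2 UMIs, as CPM (left) and as the percent of barcodes with an Lpl UMI after thinning to 12000 UMIs (right), with 95% counting intervals; the last bar is a subset of the third. Lpl increases from 14.2 CPM without Foxp2 to 51.0 CPM at 2 or more Foxp2 UMIs and 72.9 CPM at 5 or more.

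Lpl was the single member that differed 2-fold or more between RGC with and without Foxp2. Of 9556 genes with 100 or more UMIs, 0.638% were 2-fold or more higher in the Foxp2 group and 3.59% were 2-fold or more lower, and among the 7 members measured at that minimum 1 was higher and 0 were lower. Lpl ranked 10 by ratio. Among the 9 genes above it stood Coch, which encodes the extracellular protein cochlin (16.7-fold), Spon1, encoding the matrix protein spondin (6.13-fold), Phgdh, the first enzyme of serine synthesis (5.44-fold), and Lmo4, a LIM-only transcription cofactor (4.24-fold). The F-RGC markers Foxp1 (2.28-fold), Irx4 (2.26-fold) and Pou4f1 (1.72-fold) were higher too. Pou4f3, from the same marker list, was 3.21-fold lower (2.31 to 4.62). The genes furthest below included Opn4, the melanopsin gene (26.3-fold lower), Eomes (24.2-fold, 6.67 to 201, on 2 UMIs), Tbr1 (19.9-fold, 3.53 to 791, on 1 UMI) and Penk, the enkephalin precursor gene (14.8-fold), which mark other RGC types. Apoe had a ratio of 1.08 (0.909 to 1.28), Sorl1 of 0.999 (0.847 to 1.17) and Lrp1 of 0.924 (0.689 to 1.22), and Clu was slightly lower, at 0.783 (0.647 to 0.942).

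Other divisions of RGC, each taking the 92 barcodes (10%) highest in a marker, were chosen after the values were seen. For Opn4, Neurod2 and Coch the lowest of the 92 held 1 marker UMI, so barcodes of equal count can lie on both sides. Lpl was 3.06-fold higher in the RGC richest in Coch (2.33 to 3.99) and 3.57-fold lower in those richest in Opn4 (9 UMIs, 5.56 against 19.8 CPM). Sorl1 was 2.62-fold higher in the RGC richest in Calb1, a calcium-binding protein gene (227 against 86.7 CPM), 1.83-fold higher in those richest in Pvalb, and 3.72-fold lower in those richest in Neurod2 (30.5 against 113 CPM). Clu was 1.71-fold higher in the RGC richest in Cartpt, a peptide gene of direction-selective RGC (154 against 89.9 CPM). In the same divisions Apoe stayed between 82.7 and 116 CPM in the richest barcodes and Lrp8 between 19.7 and 27.2 CPM. The richest barcodes were often deeper, with a median of 23843.5 UMIs for Calb1 against 15431.5 in the rest, and the part of depth was not tested. At 12000 UMIs, over all RGC of that depth, the variance over the mean was 1.95 for Sorl1, 1.85 for Clu and 1.38 for Lpl, against 0.993 to 1.05 for the other 5 members.

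Abca1, which passes cholesterol and phospholipid from the cell to apolipoproteins, was nearly absent from RGC. RGC held 9 Abca1 UMIs in 916 barcodes, 0.580 CPM (0.265 to 1.10), each in a different barcode. Horizontal cells had 30.3 CPM (25.5 to 35.8; 138 UMIs in 108 barcodes), microglia 28.6 CPM (17.7 to 43.7) and bipolar cells 20.3 CPM (13.6 to 29.1). Müller glia had 12.9 CPM (6.87 to 22.1) from 13 UMIs. Horizontal cells thus carried the transcript at 52.3-fold the RGC level (26.8 to 117), although RGC were the deeper class. At 3000 UMIs the shares were 9.14% of horizontal and 0.218% of RGC barcodes (37 of 405 and 2 of 916), and unthinned 26.7% and 0.983%. In the order horizontal, microglia, bipolar, Müller, no neighbours differed beyond counting error, but horizontal cells stood 2.35-fold above Müller glia (1.33 to 4.53).

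Transcription of Abca1, Abcg1 and Apoe is known to be activated by the liver X receptors (LXR), sensors of oxysterols that bind DNA as partners of retinoid X receptors. The promoters of Abca1 and Apoe, the 250 bases before the annotated start, are shown because both are known LXR targets and were far lower in RGC than in Müller glia. They were read from RefSeq on GRCm38.p6, which gave a promoter for 5 of the 8 members, not for Clu, Lpl or Abcg1. Capitals in the Abca1 sequence mark, in order, an E-box, the LXR-like repeat and a TATA box, and the Apoe sequence held none of the letters searched.
Abca1, chr4:53159896-53160145, minus strand: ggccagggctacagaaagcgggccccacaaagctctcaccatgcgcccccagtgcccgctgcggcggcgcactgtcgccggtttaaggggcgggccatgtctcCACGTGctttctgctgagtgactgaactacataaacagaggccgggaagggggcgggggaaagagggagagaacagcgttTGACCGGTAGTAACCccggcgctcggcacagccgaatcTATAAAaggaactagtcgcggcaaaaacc
Apoe, chr7:19699189-19699438, minus strand: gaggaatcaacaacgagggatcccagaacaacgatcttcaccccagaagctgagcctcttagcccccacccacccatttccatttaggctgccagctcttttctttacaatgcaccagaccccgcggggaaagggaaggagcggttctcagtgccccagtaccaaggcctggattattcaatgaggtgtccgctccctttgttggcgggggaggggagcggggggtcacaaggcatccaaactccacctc

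The repeat was searched on both strands as GGTNA, any 5 bases and GGTCA, a direct repeat of 6-base units with 4 bases between them, a pattern chosen with the Abca1 sequence known. It starts 67 bases before the Abca1 start on the opposite strand, and 0.177% of 32851 promoters hold it. The E-box CACGTG, 147 bases before the start, is in 6.02% of promoters, and TATAAA, 29 bases before it, in 12.4%. The GC box GGGCGG occurs at 2 places in the Abca1 window and in 32.7% of promoters, and no matches in that window overlap. Of the other members, Sorl1 has an E-box 19 bases and a GC box 81 bases before its start, and Lrp1 a GC box at 99. The window for Lrp8, chr4:107802635-107802884, belongs to the outermost of 3 RefSeq starts but lies inside the GENCODE span given above, and holds none of the 4 patterns. These matches describe letters in the windows and were not tied to the levels.

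Abcg1, which moves cholesterol to lipoprotein particles, had its highest levels in rods and cones, on few UMIs, and in horizontal cells. Levels ran from 8.83 CPM in amacrine cells (7 UMIs) and 9.92 in Müller glia (10 UMIs) to 32.3 in horizontal cells (147 UMIs), 37.4 in cones (10 UMIs) and 46.9 in rods (13 UMIs). Horizontal cells were above RGC, which had 14.6 CPM, by 2.22-fold (1.79 to 2.74). In the order of classes, horizontal against bipolar (19.6 CPM) was the single step beyond counting error. Cones did not differ beyond it from bipolar cells (bipolar over cones 0.524, 0.247 to 1.21) or microglia (microglia over cones 0.437, 0.173 to 1.13). Of the 13 rod UMIs, 4 came from 1 barcode. At 3000 UMIs 12.3% of horizontal barcodes (9.30% to 16.0%) held an Abcg1 UMI against 3.49% of RGC (2.40% to 4.90%). Horizontal cells were also above Müller glia, by 3.26-fold (1.72 to 6.93), and rods above RGC by 3.22-fold (1.69 to 5.62).

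Lrp1, a large endocytic receptor for apolipoprotein E and many other ligands, was highest in the glia. Microglia had 107 CPM (85.1 to 134) and Müller glia 106 CPM (87.0 to 128), a ratio of 1.01 (0.747 to 1.37). RGC had 37.6 CPM (34.6 to 40.8) and horizontal cells 11.4 CPM (8.54 to 15.0). Müller glia were 2.82-fold above RGC (2.27 to 3.47), and RGC 3.29-fold above horizontal cells (2.48 to 4.46). At 3000 UMIs the shares were 29.6% of Müller, 28.2% of microglia, 12.1% of RGC, 3.46% of horizontal and 1.41% of cone barcodes, and unthinned 41.7%, 37.4%, 44.5%, 12.3% and 1.41%. The unthinned order would have put RGC first, which went against the CPM.

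Lrp8, the reelin and apolipoprotein E receptor, was even across most classes. Levels were 28.8 CPM in Müller glia (19.3 to 41.3; 29 UMIs), 22.4 in RGC (20.1 to 24.9) and 22.4 in horizontal cells (18.3 to 27.2), and between 11.2 and 22.7 in the other neurons. Microglia held 2 UMIs, 2.72 CPM (0.329 to 9.83), and RGC were 8.24-fold above them (2.26 to 68.3). At 3000 UMIs the shares were 10.2%, 5.35%, 6.91% and, in microglia, 1.23%, and unthinned 12.6%, 29.9%, 22.5% and 1.23%. No neighbours in the order of 8 classes differed beyond counting error. RGC against Müller glia had a ratio of 0.779, with an interval of 0.533 to 1.18 that includes 1. As a mean of per-barcode CPM the ratio was 0.784. Thinned to 3000 UMIs it was 0.469 (0.283 to 0.797), an interval that does not cover the spread of the random draw itself. With a mitochondrial maximum of 5% it was 1.78 (0.487 to 14.7), so the direction of the ratio was not settled. Median mitochondrial shares were 6.60% in Müller glia and 3.94% in RGC, so that maximum removed more of the Müller class.

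Sorl1, the endosomal sorting receptor, was a neuronal and Müller transcript, sparse in microglia and not found in cones. Horizontal cells had 187 CPM (174 to 200), Müller glia 142 CPM (120 to 167), bipolar cells 118 CPM (101 to 137) and RGC 105 CPM (99.9 to 110). Microglia had 23.1 CPM (17 UMIs) and cones 0 UMIs in 71 barcodes. Horizontal cells exceeded Müller glia by 1.32-fold (1.10 to 1.58), while Müller against bipolar and bipolar against RGC did not differ beyond counting error. At 3000 UMIs 40.7% of horizontal, 36.4% of Müller and 22.7% of RGC barcodes held a Sorl1 UMI, against 6.13% of microglia, and 0 of 71 cones allow a share of up to 4.23% by 3 counts, or 5.06% by the exact interval. Unthinned, the shares were 84.9%, 48.5%, 62.0% and 9.82%. Horizontal cells were at least 16.6-fold above cones, with a floor of 3 counts over the cones.

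Counted at 2-fold against RGC, the members moved in both directions in each class. Of 10018 genes with 100 or more UMIs, 14% were 2-fold or more higher in Müller glia than in RGC and 30.5% lower. Of the 7 members at that minimum, 3 were higher (Apoe, Clu and Lrp1) and 1 lower (Lpl). Abca1, at 22 UMIs over both classes, was under the minimum. In microglia, 13% of 9975 genes were higher and 41.3% lower, and of 7 members 2 were higher (Apoe and Lrp1) and 3 lower (Clu, Lrp8 and Sorl1, by 3.58-fold, 8.24-fold and 4.54-fold). In horizontal cells, 8.77% of 10257 genes were higher and 18.9% lower, and of 8 members 3 were higher (Abca1, Clu by 2.25-fold and Abcg1) and 2 lower (Lpl and Lrp1). These comparisons share the RGC barcodes, and depth differs between the classes. RGC summed to 15526742 UMIs, against 1007911 in Müller glia, 735282 in microglia and 4549229 in horizontal cells. A minimum over both classes is thus reached more easily by genes high in RGC.

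The wider lipid pathway was followed in 7 lists of 119 genes. Of the 85 with 100 or more UMIs over Müller glia and RGC, 19 were 2-fold or more higher in Müller glia and 25 lower, beside the 14% and 30.5% of all genes. That minimum favours genes high in RGC. With 30 or more UMIs the counts were 25 higher and 25 lower in Müller glia, 20 and 49 in microglia, and 11 and 33 in horizontal cells. The share of all genes at 30 UMIs was not measured. The list of ABC transporters and sterol carriers had 6 of 16 higher and 4 lower, with a median log2 ratio of 0.72 beside -0.34 over all genes. Its higher members were led by Abca8a, a lipid transporter (628 UMIs against 22, 440-fold), Abca8b (47.8-fold), Abcg2, an efflux pump (9.78-fold), and Npc2, the lysosomal cholesterol carrier (4.19-fold). Scarb1, the receptor for high-density lipoprotein, was 14.0-fold higher, and Srebf1, a regulator of fatty acid synthesis, 7.04-fold. Acsl3, an acyl-CoA synthetase of lipid droplets, was 23.0-fold higher and Slc27a1, a fatty acid transporter, 20.8-fold. Reelin (Reln), the ligand of Lrp8, was 10.9-fold lower, its other receptor Vldlr 9.55-fold lower, and Fabp5 and Fabp3, fatty acid binding protein genes, 13.4-fold and 10.5-fold lower.

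Many genes of cholesterol synthesis and turnover were lower in microglia and horizontal cells than in RGC. In microglia 14 of 17 were 2-fold or more lower, beside 41.3% of all genes, with a median log2 ratio of -2.06 beside -0.69 over all genes. Fdft1, squalene synthase, had 12 UMIs in microglia and was 8.54-fold lower (4.88 to 16.6), and Cyp46a1, which turns cholesterol into an oxysterol for export, was 10.8-fold lower (2.98 to 89.6, on 2 UMIs). The 1 that was higher was Soat1, which esterifies cholesterol (4.22-fold, 2.51 to 6.79). In horizontal cells 10 of 17 were lower and 0 higher, beside 18.9% and 8.77% of all genes, with a median of -1.13 beside -0.12. Examples were Cyp46a1 (6.38-fold lower), Idi1, isopentenyl diphosphate isomerase (3.71-fold), and Hmgcs1, the synthase that makes the precursor of mevalonate (3.47-fold). In Müller glia 5 of 17 were lower, led by Fdft1 (5.62-fold) and Fdps, farnesyl diphosphate synthase (4.91-fold), and the median of -0.46 was near the -0.34 of all genes.

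Microglia and horizontal cells also differed from RGC in receptors and lipases. Lipases and their partners had 5 of 7 higher and 2 lower in microglia, beside 13% and 41.3% of all genes, among them Lipa, the lysosomal acid lipase (3.10-fold), and Pnpla2, the triglyceride lipase of lipid droplets (3.08-fold), while Mgll, monoacylglycerol lipase, was 11.2-fold lower. Trem2, a microglial receptor that binds apolipoproteins, had 1779 UMIs in microglia and 92 in RGC (408-fold), and Mylip, which marks lipoprotein receptors for degradation and is an LXR target, was 10.4-fold higher. In horizontal cells Lipa was 2.73-fold higher than in RGC, and Dab1, the adaptor of reelin receptors, was 51.6-fold lower (14.2 to 427, on 2 UMIs against 352). Rxrg, a retinoid X receptor gene, was 35.2-fold lower in horizontal cells than in RGC, 19.0-fold lower in microglia (6.48 to 92.1, on 3 UMIs) and 26.0-fold lower in Müller glia (8.88 to 126, on 3 UMIs).

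Apoe split the microglia barcodes into 2 sets with no barcode between them. Of 163 barcodes, 96 held 0 Apoe UMIs, 50 held 1 to 5, and 17 held 13 or more, 10 of these 100 or more. The 17 barcodes (10.4% of microglia, interval 6.19% to 16.2%) held 3751 of the 3823 Apoe UMIs. Apoe took 0.296% to 21.4% of their UMIs, with a median of 193 UMIs per barcode. The 146 others had 112 CPM (87.7 to 141), close to the neuronal levels. Median depth was 4257 UMIs in the Apoe-rich barcodes and 3765 in the others, and the median sum of the 3 C1q genes was 115 and 111 UMIs, so the sets were alike in depth and in the genes of the class rule. A division at the median had been planned, but the median is 0, so it set 67 barcodes with any Apoe against 96 with none. The division at 10 or more against 5 or fewer was chosen after the values were seen.

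At the planned division, 35 of 2077 genes with 50 or more UMIs (1.69%) were 2-fold or more higher with any Apoe and 10 (0.481%) lower. Among genes found in 10% or more of the barcodes with Apoe, Ms4a7 was the highest, followed by Cd74 (12.4-fold). Ms4a7 had 66 UMIs in 9 of 67 barcodes and 0 in the 96 without Apoe. It reached the minimum of 50 UMIs through the barcodes with Apoe alone. Lyz2 was 2.64-fold higher. By a smaller step of 1.5-fold, 7.37% of genes were higher and 4.53% lower. Of the 7 members other than Apoe, Lrp1 alone reached the minimum and was neither. Of the 14 homeostatic microglia genes, which here include the C1q genes of the class rule, 0 were higher and 0 lower. The cone genes Opn1mw (12.4-fold) and Pde6h (9.43-fold) were also higher there. Pde6h was 6.00-fold lower in the Apoe-rich 17, so these cone transcripts came from barcodes with 1 to 5 Apoe UMIs.

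**Figure D5:**
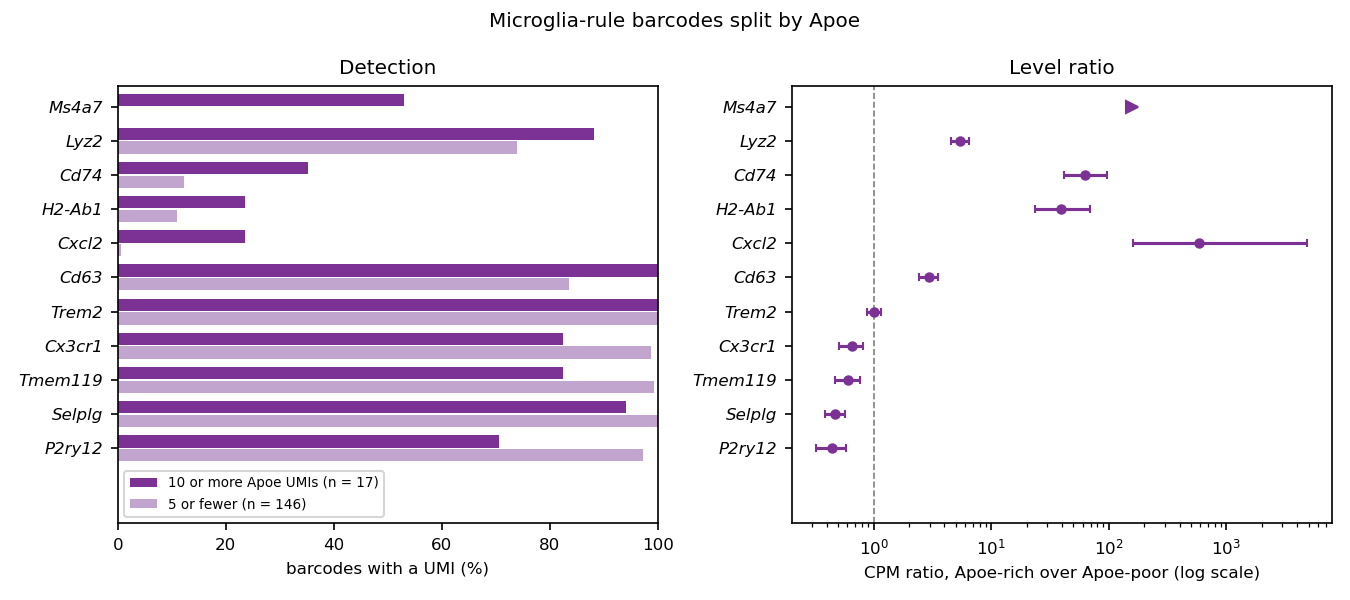
Microglia barcodes with 10 or more Apoe UMIs (n = 17) against those with 5 or fewer (n = 146): percent of barcodes with a UMI (left) and ratio of CPM on a log axis with 95% counting intervals (right). The arrowhead for Ms4a7 is a lower bound, since the Apoe-poor barcodes hold 0 UMIs; Lyz2, Cd74, H2-Ab1, Cxcl2 and Cd63 lie above 1, Trem2 at 1.01, and Cx3cr1, Tmem119, Selplg and P2ry12 below 1.

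The Apoe-rich microglia barcodes carried Ms4a7 and more Lyz2, and less of several homeostatic genes. Of the 2077 genes, 53 (2.55%) were 2-fold or more higher and 143 (6.88%) lower. The minimum of 50 UMIs was over both sets, so some genes reached it only through the Apoe-rich barcodes in which they were high. Among them were Ms4a7, H2-Aa (86 UMIs against 0) and Cxcl2 (163 against 2), and the count of 53 includes such genes. Ms4a7, a membrane protein gene of border macrophages, had 66 UMIs in 9 of 17 barcodes and 0 in 146, at least 159-fold higher with a floor of 3 counts over the 146. Lyz2, the lysozyme gene of macrophages and monocytes, was 5.42-fold higher (4.55 to 6.44) and found in 15 of 17 and 108 of 146 barcodes. Cd63, a lysosomal membrane protein gene, was 2.93-fold higher (2.41 to 3.55), and 1.99-fold without the barcode that held 62 of its 153 UMIs, while Cd9, from the same list of disease-associated markers, was 1.68-fold lower. P2ry12, the purinergic receptor of resting microglia, was 2.27-fold lower (1.72 to 3.07), Selplg 2.13-fold, Gpr34 1.79-fold, Tmem119 1.65-fold and Cx3cr1 1.54-fold lower. The homeostatic list had 6 of 14 genes 1.5-fold or more lower and 1 higher (Fcrls, 2.54-fold), where 18.1% of all genes were lower by that measure and 10.6% higher. Those 14 include the C1q genes of the class rule. Trem2 was at a ratio of 1.01 (0.874 to 1.17).

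The 17 barcodes were not alike, in ways picked out after the values were seen. Ms4a7 was found in the 9 with the most Apoe, from 193 to 902 UMIs, at 2 to 14 UMIs each, and in none of the 8 with 13 to 135. P2ry12 ran the other way at the low end: the 3 barcodes with 13 to 16 Apoe UMIs held 9 to 11 P2ry12 UMIs, and the 9 richest held 0 to 5. The antigen presentation genes Cd74, H2-Aa, H2-Ab1 and H2-Eb1 came mostly from 2 barcodes, with 128 and 92 Cd74 UMIs. A further barcode held 10 Cd74 UMIs together with 149 of the 163 UMIs of Cxcl2, a chemokine gene. Over all 17, Cd74 was 62.2-fold higher, and without the 3 barcodes with 10 or more Cd74 UMIs its ratio was 0.924. Without those 3 barcodes Ms4a7 still had 38 UMIs in 6 of 14 barcodes, Lyz2 was 4.72-fold higher, and P2ry12 had a ratio of 0.498.

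Markers of other cell types were counted in the same sets. The border macrophage list of 10 genes summed to 1122 CPM in the Apoe-rich and 57.6 CPM in the other barcodes (0 to 5117 per barcode, median 728, against 0 to 622, median 0). Most of it was Ms4a7: Pf4 had 15 UMIs in 3 barcodes and Mrc1 4 UMIs in 3, against 0 in the others, Cd163, F13a1 and Clec10a were at 0 in both sets, and Lyve1 and Folr2 at 0 in the Apoe-rich. Of the 8 monocyte markers 4 were at 0, Ccr2 among them. The list of 12 Müller markers summed to 1043 CPM (0 to 7998 per barcode, median 591) and 1088 CPM (0 to 4167, median 1008), a ratio of 0.959 (0.764 to 1.19), Slc1a3 had 0 UMIs in the Apoe-rich barcodes, and Rlbp1 was found in 1 of them. The Apoe-rich sum was 93 UMIs, 60 of them Glul, and 19 of those 60 came from the barcode with 13 Apoe UMIs. The part of Müller transcripts in the Apoe counts was not tested. The 8 rod markers summed to 819 CPM (0 to 2306 per barcode) against 2572 (0 to 47399), and the 6 cone markers to 89.7 CPM (0 to 602) against 629 (0 to 17604). The part of these lists in the gene ratios was not tested.

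Other lipid genes were too sparse in microglia for most of their members to be measured. Abca1 had 9 UMIs in 6 of the 17 Apoe-rich barcodes and 12 UMIs in 12 of the 146 others, a ratio of 5.40 (2.01 to 14.0), and Abcg1 had 5 and 7 UMIs, a ratio of 5.15 (1.29 to 18.8). Apoc1, an apolipoprotein gene beside Apoe on chromosome 7, had 12 UMIs in 3 barcodes, 9 of them in 1, against 1 UMI, a ratio of 86.5 (12.8 to 3696), and its neighbour Apoc4 had 9 UMIs in 4 barcodes against 0. Lipa, the lysosomal lipase gene, had 14 UMIs in 10 of 17 barcodes and 31 in 25 of 146, a ratio of 3.25 (1.60 to 6.30). Both cholesterol exporters thus stood higher over all 17 Apoe-rich barcodes, on few UMIs. Of the 9 Abca1 UMIs, 3 came from the barcode with 10 Cd74 UMIs and 2 from the barcode with 92. The ratio of Abca1 without the Cd74-rich barcodes was not measured. Lrp1 had a ratio of 1.04 (0.480 to 2.04), Lpl of 1.35 (0.252 to 4.72), Clu of 1.80 (0.438 to 5.58) and Sorl1 of 0.450 (0.0107 to 2.90), and those intervals include 1.

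The members did not share 1 pattern over the 8 classes. On log2(CPM + 5), Apoe was closest among the members to Lrp1 (Pearson's r = 0.78) and Lrp8 closest to Sorl1 (0.62), while Abcg1 ran opposite to Lrp1 (-0.76). These are descriptions over 8 classes that share a library and its free RNA. Among all 9528 genes with 200 or more UMIs, the 3 most like Apoe were Pdlim4, Pmepa1 and Dnajc1 (0.95 to 0.98), and those most like Lrp1 were Timp2, Emc3 and Cebpb (0.98 to 0.99). Clu was most like Pacsin3, Sfxn5 and Fzd5, Lpl like Ptpre, B4galnt1 and Sec11c, Abca1 like Clip1, Herpud1 and Emg1, and Abcg1 like Capn7, Rgs9bp and 4632404H12Rik. Lrp8 was most like Mprip, D230017M19Rik and Ncor1, and Sorl1 like Hbs1l, Fads6 and AI314180.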

How the data were processed

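The authors deposited 1 table of counts, whole numbers of UMIs per gene and barcode without normalization, with gene symbols in a second table. Per the submitters' processing notes, Cell Ranger and Seurat 2.2 were used with build mm10; no source used here gives their settings. Barcodes needed 500 genes and under 10% mitochondrial UMIs, which removed 538. Scrublet (scanpy 1.11.5) called 63 of 2699 doublets (2.33%). Depth per barcode was 3198 to 53709 UMIs, median 7674 before filtering. UMIs were summed per class and scaled to CPM. Intervals at 95% are exact Poisson for CPM, Clopper-Pearson for shares and exact conditional for ratios, and cover counting error only. A floor of 3 counts stood for 0 in ratios. Thinning was without replacement, by a single random draw at each depth. The code for ratios was run on simulated class sums with Poisson noise and no barcodes. That run cannot show whether the intervals hold where counts spread between barcodes. Genes were named by size: all members; up to 4 list genes per direction at 2-fold and 100 UMIs; the 10 highest and lowest of each split; and 3 most like each member. Members, lists and rules were chosen with earlier results of these data known. Barcodes meeting the endothelial rule were left out of the comparisons, since 9 of 19 lacked Cldn5. A few genes are not reported here. Python 3.11.15, numpy 2.4.6, scipy 1.17.1 and pandas 2.3.3 were used.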

Additional observations from a re-analysis of the deposited data

How the results depend on the processing

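Of 79 values under other settings, 52 stayed within the limits set for a small move, 26 moved and 1 reversed. No paired analysis was possible because the 4 retinas form 1 group and barcodes carry no retina, and no replicate could be left out. The Müller over RGC ratio of Apoe was 209 with a mitochondrial maximum of 5%, 107 with barcodes meeting 2 rules kept (1 RGC and microglia at once, with 535 Apoe UMIs, and 1 RGC and Müller, with 39), 169 when thinned and 125 with horizontal cells in place of RGC, a setting added after the data were seen. The microglia over RGC ratio was 51.2 with doublets kept, 45.3 with barcodes meeting 2 rules kept, 60.5 with stricter class minimums, 52.4 as a mean per barcode, 59.8 when thinned and 43.1 without the barcode richest in Apoe of each class. The Foxp2 ratio of Lpl was 2.74 when thinned. The RGC over Müller ratio of Lrp8 reversed to 1.78 at 5% mitochondrial UMIs and was 0.469 when thinned. Shares with Apoe at 6000 UMIs were 42.7% in RGC and 45.0% in horizontal cells. In the microglia split at the median (35 genes higher, 10 lower), the upper against the lower of 3 parts gave 15 higher. The parts were not equal: the lower cut fell at 0 Apoe UMIs, so its part was the same 96 barcodes without Apoe. Thinning gave 34 lower, and a minimum of 20 UMIs gave 192 higher and 116 lower. The later division at 10 or more gave 53 and 143. Of those 53 genes, 45 were also 2-fold higher without the barcode with the most Apoe, and 38 without the 3 Cd74-rich barcodes. At a 4-fold minimum, lipid list counts were 12 higher and 12 lower in Müller glia, 7 and 28 in microglia, and 2 and 15 in horizontal cells. With 1 pooled sample, spread between animals is unknown.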

Other observations

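Outside the Müller and microglia classes, 36 kept barcodes held 10 or more Apoe UMIs, and 31 of them held 10 or more Glul UMIs, so most carried Müller transcripts but missed the class rule. None was in the RGC class, 2 were in the horizontal class and 21 were in no class. The 2 barcodes that met the RGC rule and a second rule, left out of all classes, held 535 and 39 Apoe UMIs. The 7 barcodes with 5 or more Gfap UMIs held 62 to 602 Apoe UMIs (median 72) and 19 to 149 Clu UMIs (median 37); 4 of them were in the Müller class and 3 carried Pax2, a transcription factor gene of retinal astrocytes. A further barcode held 548 UMIs of Ttr, the transthyretin gene of pigment epithelium, with 10 of Rpe65, 117 of Apoe and 67 of Clu.

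Of the 19 barcodes that met the endothelial rule, the 10 with Cldn5, a tight junction gene of vessels, held 1 to 7 Apoe UMIs and at most 11 Glul UMIs. The 9 without Cldn5 held 41 to 102 Apoe UMIs and a median of 81 Glul UMIs. In the 10 with Cldn5, Lrp8 had 11 UMIs in 6 barcodes, 170 CPM (84.8 to 304), above the 2.72 to 28.8 CPM of the classes compared; these barcodes were picked out after the values were seen.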
